A study of Citrus unshiu with 2 samples.

Results

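The 215 regions described here are the CG differential regions of the satsuma mandarin, Citrus unshiu, that touch the 3' untranslated region (3' UTR) of a gene. They were taken from the authors' deposited list of 2782 regions in which CG methylation differed between a light drought and a normal water library, and were chosen by the authors' annotation of the region, which names the 3' UTR. The list itself was selected on the measured CG difference and its p-value. The same annotation assigns them to the 3' UTRs of 222 genes, all of which have methylation levels in both libraries. Both libraries came from shoots (mature stems) of trees grown in a rain-proof tunnel. Of 20 trees assigned to each group, those under light drought were kept for 75 days in soil that dried to about 15% moisture, and the others received normal water. Each group is 1 whole-genome bisulfite library, so there is no replicate, no test between the groups was made, and SDs are over regions or genes, which are not replicates. The sources used here give neither the number of trees in a library nor the read depth. A difference is given in percentage points, as the light drought level less the normal water level, so that above 0 means higher under drought.

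Bisulfite sequencing reads methylated cytosines as C and unmethylated ones as T, and plants methylate cytosines in the CG, CHG and CHH contexts, where H is any base but G. CG methylation is copied at each DNA replication by a maintenance enzyme, MET1 in Arabidopsis. Many moderately and constitutively expressed plant genes carry CG methylation in their exons and introns without CHG or CHH, a pattern called gene body methylation, which in Arabidopsis declines towards both ends of the gene. Methylation in all contexts together marks transposons and other silenced sequence, and it is set and kept there by chromomethylases and by RNA-directed DNA methylation. The 3' UTR is the end of the transcript beyond the stop codon, where signals for polyadenylation and sites that govern mRNA stability lie. The genes are known here by identifier alone, since 0 of the 29073 identifiers were found in the RefSeq gene table at hand, and most regions are therefore named by position, counted from 1 in a genome build that is not named in the sources.

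CG regions in 3' UTRs were mostly higher under light drought. Of the 215 regions, 185 were higher and 30 lower, or 86.0% higher, where 70.0% of all 2782 listed CG regions were higher and the others lower. The mean difference was 24.3 points (SD 23.0 over regions) and the median 27.5 points, and the middle of the distribution ran from 16.1 to 38.5 points between the quartiles. Higher regions had a median of 30.2 points and lower ones of -20.8 points. The regions were listed as differing between the same libraries, so these values describe the members and test nothing.

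Lower regions were confined to differences under 40 points among the 215. Of the regions under 5 points 4 were higher and 0 lower, of those between 5 and 10 points 5 were higher and 3 lower, and of those between 10 and 20 points 29 were higher and 9 lower. Between 20 and 30 points 52 were higher and 15 lower, and between 30 and 40 points 48 were higher and 3 lower. All 47 regions of 40 points or more were higher, 20 of them by at least 50 points. The other CG classes had smaller shares of higher regions and smaller medians. Regions in exons or introns that do not touch a 3' UTR numbered 908, with 70.4% higher and a median difference of 16.6 points. For the 297 regions in downstream flanks alone the values were 72.4% and 16.4 points, for the 313 in promoters 63.6% and 13.7 points, and for the 991 outside gene features 68.6% and 9.58 points. The 58 regions in 5' UTRs that touch no exon, intron or 3' UTR were higher in 29 cases and lower in 29.

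**Figure D1:**
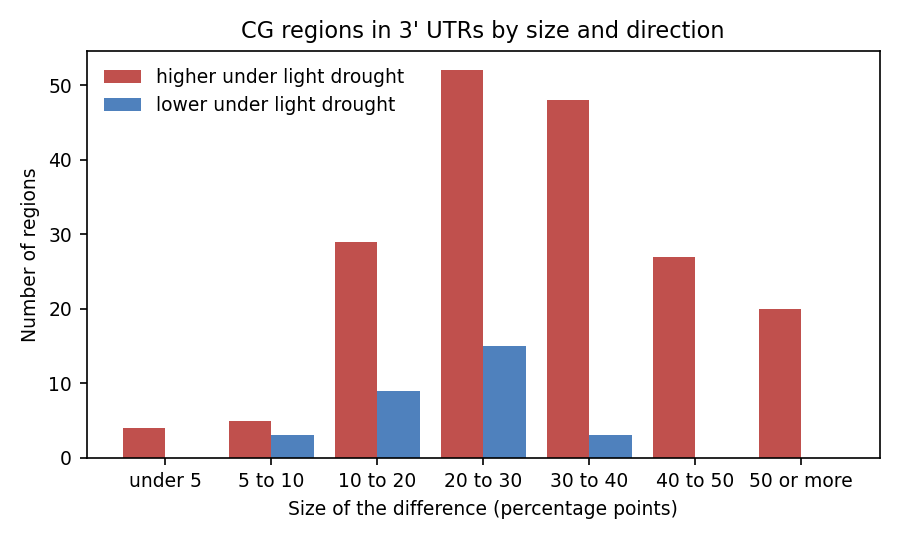
Number of CG regions in 3' UTRs (vertical axis) by the size of the difference in percentage points (horizontal axis), for regions higher (red) and lower (blue) under light drought. All 47 regions at 40 points or more are higher, and 3 of the 51 between 30 and 40 points are lower.

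The regions were short and held few cytosines. Their median length was 96 bp, with a range from 13 to 313 bp, and together they covered 22418 bp. The fewest cytosines a listed region holds is 10, and 152 of the 215 regions held exactly that number, while the highest number was 40. The listed cytosines had a median density of 11.1 per 100 bp of region, compared with 12.4 in exon or intron regions and 13.9 in regions outside gene features. These are cytosines and not CG sites. The shortest region, of 13 bp, held 10, more than 1 strand can hold in the CG context, so both strands appear to be counted. In the authors' deposited table, the longest region lies on chromosome 7 at 6450332 to 6450644 and differed by 29.8 points over 26 cytosines. The next in length, on the unplaced sequence at 19563815 to 19564058, differed by 28.8 points in the authors' deposited table, and the one on chromosome 3 at 19812543 to 19812765 by 16.9 points. The region with 40 cytosines, on the unplaced sequence at 16760103 to 16760274, was higher by 20.5 points in the authors' deposited table. Only 25% of it lay in the 3' UTR, as did 10.2%, 42.2% and 17.0% of the longest regions in the order given.

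The number of cytosines bounded the p-values. In the authors' deposited table, the smallest p among the regions of 10 cytosines was 1.08e-05, shared by 22 regions, all higher, whose differences spanned 17.6 to 67.2 points. That value equals the smallest that an exact two-sided rank test of 10 against 10 values can give. The same held for 11 cytosines, where 2 regions shared 2.84e-06 in the authors' deposited table, and for 12 cytosines, where 4 regions shared 7.4e-07. The sources used here do not name the test behind these p-values. In the authors' deposited table the corrected p was 1 for 180 of the 215 regions and under 0.05 for 1 region. The corrected p did not follow the order of p. In the authors' deposited table a p of 2.84e-06 on chromosome 7 went with a corrected p of 0.408, and a p of 1.46e-05 on chromosome 9 with 0.194. How the correction was made is not stated in the sources used here. The p-values rest on the cytosines of 1 library against those of another, so the variation from tree to tree does not enter them.

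Most regions lay wholly within the 3' UTR. For 131 of the 215 regions the 3' UTR was the only feature and covered the region in full. Another 46 also touched an exon, which belonged to the same gene in 44 of them. A further 31 reached into a downstream flank and 7 touched the promoter of a neighbouring gene. In 46 regions less than 50% of the length lay in the 3' UTR, and the smallest overlap was 2 bp. The smallest share, 1.33%, was that of the region on chromosome 7 at 17609206 to 17609355.

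Direction varied with position. Regions that ran from the 3' UTR into the downstream flank were higher in 30 of 31 cases, with a median of 34.3 points. All 7 regions that touched a neighbour's promoter were higher, by 16.9 to 38.3 points. Regions within the 3' UTR alone were higher in 113 of 131 cases, with a median of 24.7 points. Those that touched an exon were higher in 35 of 46 cases, with a median of 23.1 points, and held 11 of the 30 lower regions. Spread within each of the larger classes was wide, with an SD of 22.8 points for the 3' UTR alone and 26.6 points with an exon.

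**Figure D2:**
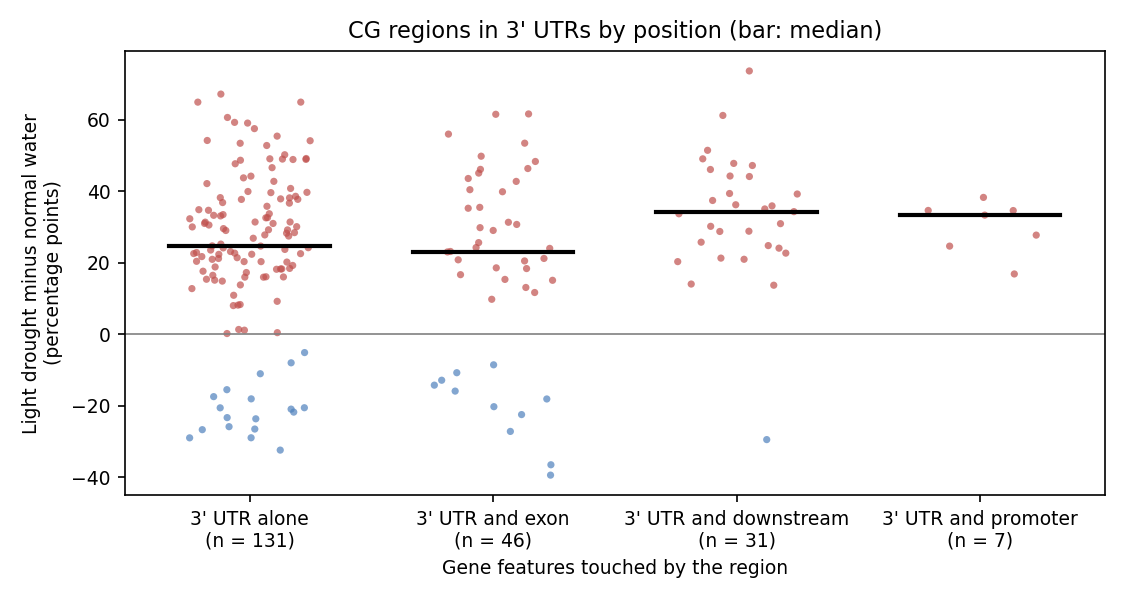
Difference of each CG region in percentage points (vertical axis) by the gene features it touches (horizontal axis), with red points higher and blue points lower under light drought and bars at the median. Regions reaching downstream have 1 lower member among 31, and regions touching an exon have 11 among 46.

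In 16 regions the annotation placed the same stretch in the 3' UTRs of 2 genes with neighbouring identifiers, the ends of whose annotated transcripts overlap there. All 16 were higher under light drought, with a median of 41.9 points and a range from 18.3 to 65.0 points, compared with 169 higher of 199 and a median of 24.8 points where 1 gene was hit. The 3' UTR level of the 30 genes in these pairs stood at a mean of 52.7% under light drought against 36.6% under normal water, and was higher in each of them. Paired genes share the measured stretch and are not separate cases. Their downstream flanks were listed at 0 in both libraries in 28 of the 30 for CG, and in all 30 for CHG and CHH. A value of 0 can also mean that no flank was measured.

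The region with the largest difference lies on chromosome 9 at 11110768 to 11110896, across the end of the 3' UTR of Cs9g12660. In the authors' deposited table it was higher by 73.7 points over 18 cytosines, with a p of 3.51e-07 and a corrected p of 0.0759. The 3' UTR of Cs9g12660 stood at 35.2% CG under normal water and 62.9% under light drought. Its downstream flank stood at 0.57% and 33.4%. The exons were methylated in both libraries and not higher under drought, at 74.0% and 69.0%, and the introns stood at 81.03% and 80.79%. CHG in this 3' UTR was 1.1% and 0%. The difference thus lay at the end of a gene whose exons and introns were methylated in CG in both libraries.

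Cs7g08150 holds the only region with a corrected p under 0.05, on chromosome 7 at 5048116 to 5048201. The authors' deposited table gives it 22 cytosines, a difference of 49.0 points, a p of 1.34e-08 and a corrected p of 0.00346. Its 3' UTR had 1.65% CG methylation under normal water and 39.6% under light drought. CHG there was 0% and 6.81% and CHH 0.11% and 1.57%, so both were low beside CG. The exons stood at 23.3% and 21.2%, the introns at 73.9% and 76.2%, and the downstream flank at 0% and 0.65%.

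Of the other 7 regions with the highest differences, 4 lie on chromosome 7, 2 on chromosome 9 and 1 on chromosome 1. On chromosome 7 the authors' deposited table gives 67.2 points at 26865731 to 26865807, 65.0 points at 1404428 to 1404545, 61.2 points at 22768343 to 22768463 and 60.7 points at 15150005 to 15150119. On chromosome 9 it gives 65.0 points at 16510316 to 16510441 and 61.6 points at 1686290 to 1686353. On chromosome 1 the authors' deposited table gives 61.7 points at 8935194 to 8935321. Of the region of 61.6 points only 9.38% lay in the 3' UTR, and of that of 61.7 points 46.1%. In each of the 7 genes (the first of the pair where 2 are named) the 3' UTR level was also higher under light drought, by 10.5 to 42.6 points. In 6 of the 7 the 3' UTR held at most 1.20% CHG in either library. The exception was the region at 15150005 to 15150119, whose 3' UTR stood at 72.2% and 80.2% in CHG and at 39.2% and 41.9% in CHH under normal water and light drought, with a CG level of 34.4% and 61.7%.

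The most negative of the 30 lower regions had -39.4 points in the authors' deposited table and belongs to Cs1g02330, on chromosome 1 at 1649834 to 1650023. Of this region 15 bp lie in the 3' UTR and the rest reaches into the exon. This gene was lower in the 3' UTR, exons and downstream flank, in CG and in CHG. Its 3' UTR stood at 95.0% under normal water and 52.4% under light drought in CG and at 78.9% and 38.1% in CHG. The exons stood at 93.8% and 53.8% in CG. The downstream flank stood at 90.0% and 36.8% in CG and at 77.2% and 44.4% in CHG. The 3' UTR of Cs2g13960 held next to no CHG. Its region on chromosome 2 at 10700027 to 10700101, with -32.4 points in the authors' deposited table, lies within the 3' UTR, which stood at 56.3% and 34.8% in CG with at most 0.95% in CHG. The exons of Cs2g13960 stood at 39.0% and 32.4% in CG.

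The other 4 of the 6 lowest were -36.5 points on chromosome 8 at 149017 to 149233, -29.5 points on chromosome 2 at 4994413 to 4994473, -29.0 points on chromosome 7 at 21242025 to 21242173 and -29.0 points on chromosome 4 at 8100287 to 8100382, all in the authors' deposited table. Their 3' UTR levels were lower under light drought as well, with differences of -18.0 to -27.3 points. Of the region of -36.5 points only 9.68% lay in the 3' UTR. At the other end, the smallest differences among the listed regions were 0.201, 0.449 and 1.14 points for higher regions, all on the unplaced sequence. The smallest among lower regions were -5.13, -7.99 and -8.55 points. For the region of -5.13 points, on chromosome 1 at 2569132 to 2569185, the 3' UTR level ran the other way, at 0% under normal water and 4.25% under light drought.

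The 3' UTR levels of the 222 genes hit followed their regions. Their mean CG level was 35.2% in the normal water library and 48.8% in the light drought library. The mean difference was 13.6 points (SD 14.3 over 222 genes) and the median 13.0 points. Over all 29073 genes the mean difference was 1.55 points. In both libraries many genes have a 3' UTR value of 0, which can also mean no 3' UTR or no covered cytosine, so genes above 0 in both libraries give the closer comparison. Among these, the 214 genes hit stood at 36.5% and 50.3%, and 10331 genes without such a region at 51.1% and 54.9%, a difference of 3.82 points. Of the genes hit 88.8% were higher under light drought in this set, and of the others 61.1%. The gene levels come from the same reads as the regions and are not independent of how the genes were chosen.

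**Figure D3:**
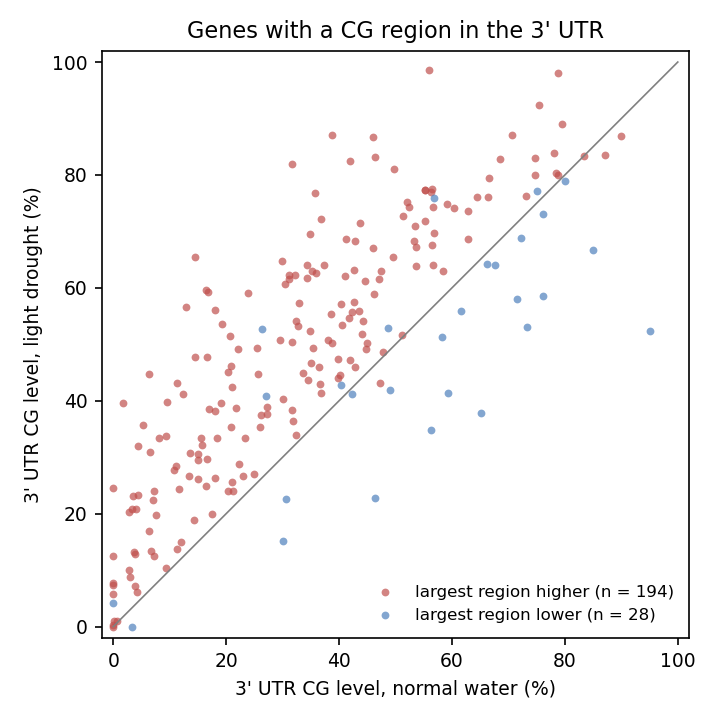
CG level of the 3' UTR in percent under normal water (horizontal axis) and light drought (vertical axis), 1 point for each of the 222 genes, red where the gene's largest region was higher and blue where it was lower, with the line of equal levels. Most red points lie above the line, and blue points lie on both sides of it.

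The sign of the gene level matched that of the region in 207 of 217 genes with regions in 1 direction and a 3' UTR difference other than 0. It matched in 187 of 191 genes with higher regions and in 20 of 26 with lower ones. This is also the check on the direction of the regions, which otherwise rests on the order of the groups in the name of the authors' table. In the 192 genes with only higher regions the 3' UTR level stood at 32.5% in the normal water library and 49.2% in the light drought one. In the 26 genes with only lower regions the levels were 56.0% and 48.7%. The remaining 4 genes had a region in each direction, with means of 28.6% and 30.4%.

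The exons of the same genes differed little. The mean CG exon level of the 222 genes was 48.2% in the normal water library and 49.6% in the light drought library. The difference was 1.41 points (SD 7.21 over genes), compared with 0.650 points over all genes. Downstream flanks stood at 21.0% and 24.2%, a difference of 3.19 points (SD 9.99 over genes), compared with 1.71 points over all genes. The median downstream difference was 0, as it was over all genes, and 81 of the 222 genes were at 0 in both libraries. The mean was 1.66 points over genes whose region touches the 3' UTR alone. Among genes above 0 downstream in both libraries, the means were 4.28 points in genes hit, 2.68 points with the 3' UTR alone and 2.48 points over all genes. Most of the excess over all genes was thus not seen without the regions that reach other features. Introns differed by 0.860 points, promoters by 1.95 points and 5' UTRs by -0.261 points. In the 108 genes with 3' UTR, exon and downstream all above 0 in both libraries, the differences were 14.2 points in the 3' UTR (SD 16.5), 0.741 points in exons (SD 8.45) and 4.32 points downstream (SD 11.1). As signed values, the 3' UTR difference was above that of the exons in 90 of these 108 genes and above that of the downstream flank in 78. For exons this held in 85 of 89 genes with higher regions only and in 3 of 15 with lower regions only. These genes were chosen by a listed region in the 3' UTR, so a wider difference there is no finding. Among 5210 genes without such a region and with all 3 features above 0, the differences were 3.64, 0.488 and 3.30 points.

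The direction of the exon level was not tied closely to that of the region. Exon and region had the same sign in 125 of 207 genes, and in 12 of 25 where the region was lower. For downstream flanks the counts were 97 of 137 genes in all and 8 of 19 with lower regions. Across genes the difference of the region correlated with that of the 3' UTR level at Pearson's r of 0.693 (210 genes), of the downstream level at 0.381 (112 genes) and of the exon level at 0.232 (191 genes). These points share both libraries, and regions that reach into an exon or flank are part of those levels too.

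**Figure D4:**
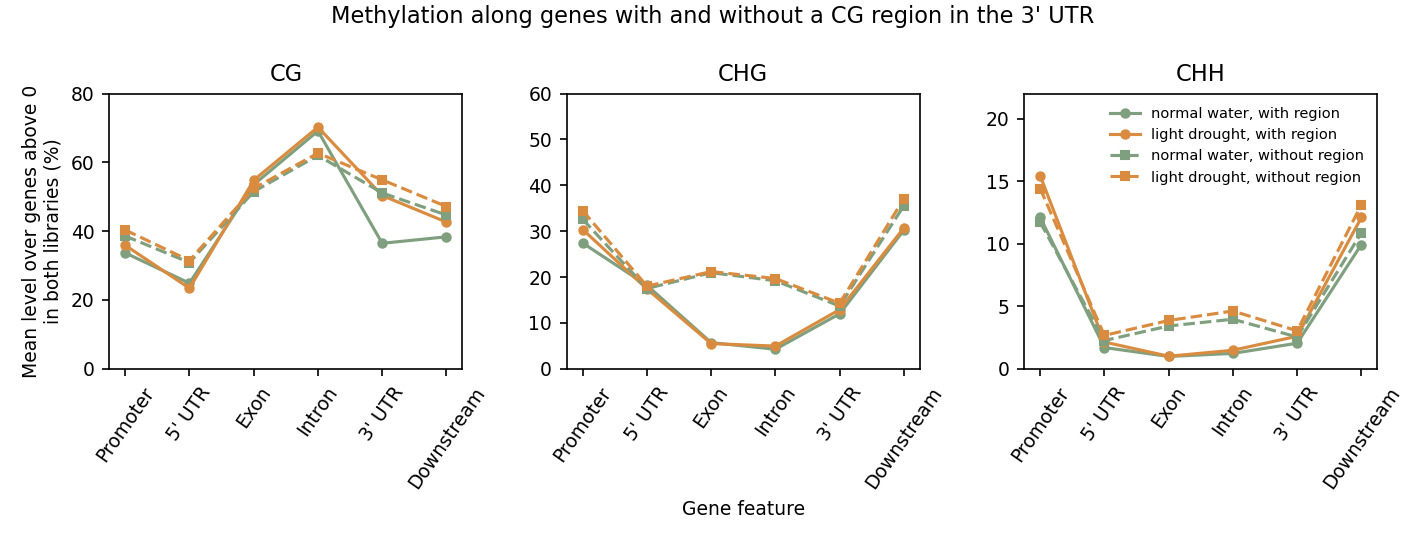
Mean methylation level in percent (vertical axis) along gene features (horizontal axis) in CG, CHG and CHH, over genes above 0 in both libraries for that feature, under normal water (green) and light drought (orange), for genes with (solid) and without (dashed) a CG region in the 3' UTR. No error is drawn, as each condition is 1 library. In CG the solid lines part at the 3' UTR, at 36.5% and 50.3%, and lie close in exons.

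The contrast of 3' UTR and exon was widest in 3 genes. For the gene with a region on chromosome 9 at 13791559 to 13791654, the 3' UTR stood at 6.26% CG under normal water and 44.8% under light drought, while the exons stood at 31.6% and 10.4%. The gene with a region on chromosome 2 at 17941584 to 17941750 had 41.9% and 82.4% in the 3' UTR and 43.0% and 33.7% in exons. The gene with a region on chromosome 5 at 27535549 to 27535660 had 31.6% and 82.0% in the 3' UTR, and 43.0% and 45.5% in exons. In these 3 genes CHG in the 3' UTR was at most 9.38% in either library.

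Genes were counted as different from 20 points in CG and CHG, and from 10 points in CHH. The CG level of the 3' UTR was higher by that size in 67 of the 222 genes hit and lower in 5. Over all 29073 genes 4.29% were higher and 1.37% lower, and over the 10545 genes above 0 in both libraries 10.1% and 2.57%. The rule that chose the genes used this contrast, so the larger share among them is no finding. Of the 1247 genes higher by 20 points or more, 66 held a higher region only, which is 5.29% of those genes and 34.4% of the 192 genes with higher regions only. For lower levels 5 genes were shared, or 1.26% of 397 genes and 19.2% of 26. Exons passed the size in CG in 3 genes upward and 3 downward, where the shares over all genes were 1.55% and 0.973%. Downstream flanks passed it in 11 genes upward and 2 downward, where they were 3.67% and 1.61%.

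Partly methylated 3' UTRs made up most of the genes hit. By the mean of both libraries, 79.6% of the 221 genes above 0 in either library had a 3' UTR CG level above 20 and up to 80%, and 3.17% a level above 80%. Among 11906 genes without such a region the shares were 53.8% and 19.4%. A region that differs by many points cannot lie near 0 or 100% in both libraries. Whether the choice of regions accounts for these shares was not tested.

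Genes were then compared at similar levels, among those above 0 in both libraries. With a mean level above 20 and up to 40%, the 61 genes hit differed by 17.1 points (SD 13.7), at 38.1% under light drought against 21.0%, and 1897 other genes by 6.16 points (SD 14.9). Between 40 and 60% the differences were 15.3 points (SD 15.2) in 67 genes hit and 5.70 points (SD 16.7) in 2107 others. Between 60 and 80% they were 11.2 and 3.77 points, and above 80% they were 6.38 points in 7 genes hit and 1.26 points in 2305 others. The genes without a listed region thus had the same direction at each level, with smaller means. The genes hit were chosen by a CG difference between the same libraries, so their larger means are no finding. Of the 3' UTRs hit with a level up to 20%, all 31 were higher under light drought, as were 62.2% of 1788 others. A gene hit by a lower region, at 3.28% under normal water and 0% under light drought, is outside this set.

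**Figure D5:**
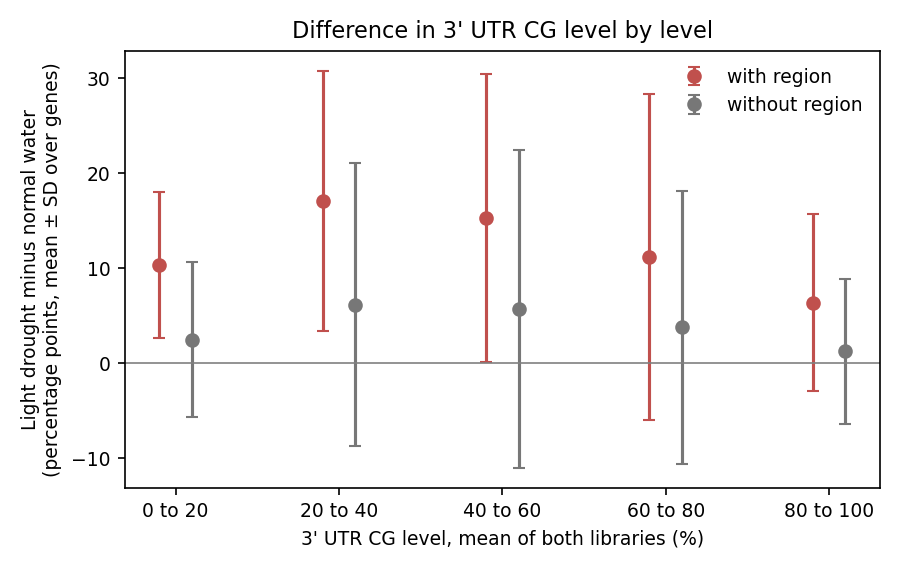
Difference in 3' UTR CG level in percentage points (vertical axis, mean ± SD over genes) by the mean level of both libraries in percent (horizontal axis), for genes with (red) and without (grey) a CG region in the 3' UTR, over genes above 0 in both libraries. The means of both sets are above 0 in each group and highest between 20 and 40%, at 17.1 and 6.16 points. Genes with a region were chosen by a CG difference between the same libraries.

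CHG and CHH methylation of the genes hit was low in most of them and differed little. CHG in the 3' UTR stood at 6.02% under light drought and 5.53% under normal water, with medians of 0.49% and 0.275%. The mean difference was 0.493 points (SD 4.38 over 222 genes). Over all genes, many of them listed at 0, the 3' UTR means were 2.30% and 2.17%. Among genes with 3' UTR CG above 0 in either library, 12.7% of the genes hit and 9.04% of the others had a 3' UTR CHG level of at least 10%. In exons CHG stood at 3.67% and 3.71%, compared with 11.9% and 11.8% over all genes. CHH in the 3' UTR was 2.19% and 1.71%, where all genes had 1.05% and 0.873%. In exons CHH was 0.893% and 0.880%, where all genes had 3.02% and 2.67%. Downstream CHH was 6.85% and 5.63%, a difference of 1.22 points next to 1.52 points over all genes. Downstream CHG was 13.6% and 13.0%.

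By the fixed size, CHG of the 3' UTR was higher in 0 and lower in 1 of the 222 genes, where 0.368% and 0.272% of all genes passed. CHG of exons was higher in 0 and lower in 1, next to 0.709% and 0.729%, and downstream CHG higher in 2 and lower in 1, next to 1.50% and 0.977%. CHH of the 3' UTR was higher in 3 and lower in 0, next to 0.550% and 0.227% of all genes, many of them at 0. Among genes above 0 in both libraries the counts were 3 and 0 of 184 genes hit, and 122 and 30 of 8923 others. No gene hit passed in CHH of exons, where 0.898% and 0.430% of all genes did, and downstream CHH was higher in 4 and lower in 1, next to 3.81% and 0.626%. Among the genes hit each of these counts is 1.80% or less.

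The widest CHG and CHH differences in the 3' UTR belonged to few genes. In CHG the largest increases were 19.4, 19.1 and 16.1 points, in genes whose CG level in the 3' UTR was also higher, by 36.7, 21.1 and 29.7 points. The largest decreases were -40.8 points in Cs1g02330, -14.7 points in the gene with the region at 17609206 to 17609355 of chromosome 7 and -10.9 points in that with the region at 5389807 to 5389838 of chromosome 4. In CHH the largest increases were 13.2, 10.8 and 10.7 points, and the largest decreases -7.11, -4.86 and -4.51 points. The gene with 10.8 points, on chromosome 1 at 12149941 to 12150019, had a lower CG region of -15.5 points in the authors' deposited table, so CHH and CG differed in sign there.

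Most lower regions, 17 of 30, lay in 3' UTRs with little CHG methylation, as did most higher ones. The members were split at a 3' UTR CHG level of 10%, averaged over both libraries, a value chosen after the levels were seen. Of 185 regions below it 168 were higher and 17 lower, or 90.8% higher, with a median of 29.2 points. Of 30 regions at or above it 17 were higher and 13 lower, or 56.7% higher, with a median of 8.90 points. In the 28 genes with CHG at 10% or more, the 3' UTR stood at 56.6% under light drought and 52.6% under normal water in CG, at 41.2% and 39.2% in CHG and at 10.9% and 9.22% in CHH. In the other 194 genes it stood at 47.7% and 32.6% in CG, at 0.952% and 0.670% in CHG and at 0.929% and 0.629% in CHH, with exons at 51.4% and 49.7% in CG. The genes with lower regions only had a mean 3' UTR CHG level of 19.3% in the normal water library and 17.6% in the other, but medians of 3.62% and 1.30%, and mean and median were thus far apart. Whether the CHG level has a part in the direction was not tested.

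The regions were then set against the lists of the other contexts. A CHG region overlapped 5 of the 215 regions, or 2.33%, by at least 1 bp. The share was 7.93% for CG regions in exons or introns, 11.2% for those in promoters and 13.2% for those outside gene features. All 5 pairs had the same direction, with 4 higher and 1 lower, and all 5 CHG regions also lay in the 3' UTR. Shared direction was usual in other classes too, with 73 of 74 CHG pairs in exons or introns, 34 of 35 in promoters and 132 of 132 outside gene features. Among the 5, the longest shared stretch was 146 bp at 19563867 to 19564012 of the unplaced sequence. There the authors' deposited tables give 28.8 points in CG and 27.7 points in CHG. A CHH region overlapped 10 of the 215 regions, or 4.65%, in 11 pairs that all were higher in both contexts. The share was lower, at 2.64%, for CG regions in exons or introns, and higher for those in downstream flanks alone (8.08%), outside gene features (13.6%) and in promoters (15.3%). In CHH the authors' deposited table gives 32.98 points on chromosome 2 at 20468659 to 20468752, over the CG region of 36.9 points at 20468641 to 20468734. On chromosome 5, a CHH region of 41 cytosines at 3616436 to 3616594 was higher by 25.5 points in the authors' deposited table, around a CG region of 21.0 points. No region overlapped both a CHG and a CHH region.

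The regions mostly stood alone. The nearest other CG region lay at a median of 32829 bp, and within 200 bp for 12 regions, of which 11 had the direction of that neighbour. Within 1000 bp the counts were 29 and 21. These counts stand beside the 86.0% of the 215 regions and 70.0% of all listed CG regions that were higher. The neighbour was itself in a 3' UTR for 7 of the 12 and 17 of the 29, so some pairs are counted from both sides. A CG region in another feature was listed for 12 of the genes, in 16 gene-region pairs of which 12 had the same direction. In exons 5 of 6 such pairs had the same direction. More than 1 region in the same 3' UTR was listed for 9 genes, at 8 places, with 97 to 748 bp between them. At 4 of the 8 places both were higher, and at 4 they had opposite directions, 3 of these on the unplaced sequence. The widest pair, on chromosome 3, was higher by 22.7 points at 28544749 to 28544939 and by 16.0 points at 28545688 to 28545909 in the authors' deposited table. On chromosome 9 the authors' deposited table gives 21.2 points at 15003190 to 15003345 and -20.6 points at 15003767 to 15003791, and the 3' UTR as a whole stood at 13.7% under light drought and 11.4% under normal water. On the unplaced sequence the authors' deposited table gives 1.14 and -11.0 points for the pair at 16132634 to 16132669 and 16133152 to 16133257, and 29.6 and -8.55 points for that at 64998449 to 64998573 and 64998796 to 64998885.

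Each chromosome had mostly higher regions. On the 9 numbered chromosomes, which held 10 to 33 regions each, 68.2 to 96.2% were higher, with the lowest share on chromosome 1 (15 of 22) and the highest on chromosome 5 (25 of 26). On the unplaced sequence 25 of 35 were higher, or 71.4%, with a median of 18.3 points, compared with 28.6 points over the 180 regions on numbered chromosomes. Chromosome 7 had 33 regions, 31 of them higher.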

How the data were processed

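Whole-genome bisulfite sequencing measured methylation in 1 library of normal water trees and 1 of light drought trees. The labels name the treatment of each library. The submitters' processing notes list Bismark 0.20.1, SAMtools 1.4 and bedtools 2.26.0 without a role, and the sources used here do not give the genome build, the region caller or its test. The authors deposited methylation levels per gene and feature in percent, per the file headers, with no read counts, so depth and counting error are unknown. The authors also deposited lists of differential regions, which per the file headers give each region a difference score in percentage points and its p-value before and after correction. The lists hold 6 level columns that name groups by number and could not be matched to a sample, and these were left out. The direction, light drought minus normal water, follows the order of groups in the name of the authors' table and was checked against the labelled gene levels.

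From these files the regions naming a 3' UTR were taken once each, starts were counted from 1, and genes were joined by identifier. Overlap meant at least 1 bp. Fixed sizes of 20 points in CG and CHG and 10 in CHH served for counts of genes. The direct counting steps were run on simulated data, where 200 of 200 planted items were recovered for each step with 0 false. The planted levels lay well clear of the fixed size and the noise was set small. This checks the counting code alone and says nothing about false calls in these data. Regions are named where they are the largest in either direction, the only one with a corrected p under 0.05, the longest, the richest in cytosines, the smallest in either direction, the least within the 3' UTR, or 1 of several in a gene. Genes are named for the largest CHG and CHH differences and for unlike 3' UTR and exon levels. At most 2 identifiers with higher and 2 with lower regions are printed. The members and lists were chosen with earlier results of these data known. Calculations used pandas 2.3.3 and numpy 2.4.6 in Python 3.11.15, and figures matplotlib 3.10.9.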

Additional observations from a re-analysis of the deposited data

How the results depend on the processing

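No paired analysis was possible because a group is 1 library, which is also why leaving a library out was not run. Of 157 recalculated results, 106 kept their size and sign, 47 moved and 4 changed sign. A count or share was taken as moved at over 1.5 times, and a mean at over 1.5 times and by at least 1 point. Higher against lower regions numbered 1 and 0 with a corrected p under 0.05, 95 and 3 at 30 points or more, 13 and 0 with at least 15 cytosines, and 113 and 18 with the 3' UTR as the only feature, in each case by keeping fewer regions. Keeping regions with at least 50% of their length in the 3' UTR, a choice made after seeing the data, left 148 higher and 21 lower.

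Smaller fixed sizes (10 points, 5 in CHH) gave these counts of higher and lower genes: CG in 3' UTRs 135 and 10, exons 17 and 7, downstream 35 and 4; CHG in 3' UTRs 5 and 3, exons 1 and 3, downstream 8 and 6; CHH in 3' UTRs 5 and 1, downstream 22 and 3, and 1 lower in exons. Larger sizes (30 points, 15 in CHH) gave CG in 3' UTRs 30 and 1, exons 1 and 1, downstream 6 and 1, with 1 higher for CHG downstream, 0 for CHH in 3' UTRs and 2 for CHH downstream. Over genes above 0 in both libraries, 1 gene was higher in CG exons and 0 in CHG downstream. Over genes of at least 5% in either library the mean differences were 5.72 points for CG downstream, 1.75 for CHG in 3' UTRs, -1.29 for CHG exons, 2.54 for CHH in 3' UTRs and 3.63 for CHH downstream. Medians for CG and CHH downstream were 0, and the mean for CG downstream was 1.66 points with the 3' UTR as the only feature. CHG exons changed sign from -0.0366 to 0.01 points by the median and to 0.09 points with the 3' UTR as the only feature. CHH exons changed sign from 0.0127 to -0.523 points over genes of at least 5% and to -0.0373 points after centring on the median gene. CHG regions within 200 bp numbered 8 and CHH regions 19, and 3 CHH overlaps covered at least 50% of the CG region. The cause was not tested for the changes of sign.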

Other observations

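The other contexts had differential regions in 3' UTRs too. The CHG list holds 99, of which 64 were higher and 35 lower under light drought, or 64.6% higher next to 61.6% of the whole CHG list, with a median of 14.4 points. The CHH list holds 576, of which 448 were higher and 128 lower, or 77.8% higher next to 80.2% of the whole CHH list, with a median of 13.9 points. These regions lay in the 3' UTRs of 92 and 435 genes, of which 7 and 19 also had a CG region in the 3' UTR. CG regions in 3' UTRs made up 7.73% of the CG list, where 3' UTR regions made up 3.05% of the CHG list and 0.698% of the CHH list.

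In promoters of the 222 genes with a CG region in the 3' UTR, CHH methylation stood at 10.7% in the normal water and 13.6% in the light drought library, 2.90 points apart (SD 4.21 over genes), where all genes had 10.3% and 12.7%. CHG methylation in these promoters stood at 20.1% and 22.3%, a difference of 2.19 points, compared with 1.37 points over all genes. Among the genes with only lower CG regions, promoter CHH stood at 13.1% and 16.9%. Its sign was the opposite of that of their CG regions, in a different context and a different feature. Promoter CG in these genes was higher too, by a mean of 0.671 points (SD 5.83 over genes). Within CHH the mean difference of their 3' UTRs was above 0 too, at 0.676 points (SD 2.91 over genes).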
